A study of Homo sapiens with 6 samples.

Results

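The 9 genes described here encode the laminin chains LAMA3, LAMA4, LAMA5, LAMB1, LAMB2, LAMB3 and LAMC1 and the nidogens NID1 and NID2. They were taken by symbol from a deposited table of 61155 gene symbols, and all 9 were found. The table holds 3 control libraries and 3 libraries with VASP knocked down, all of MDA-MB-231, an established line of human breast cancer cells that lack hormone receptors and have a mesenchymal form. Sample titles call the groups plko and shVASP, while the sample characteristics give a negative control siRNA for the first and an siRNA to VASP for the second, with a harvest 48 hours after transient transfection. Whether a hairpin vector or an siRNA was used cannot be told apart from the labels, and both sets of labels give the same groups. No further allele or agent is named for either group. Separate cultures are not stated for the libraries of a group, and p-values therefore rest on a spread between libraries that may be technical only. The names of the 3 control columns all extend the title of the same control sample by a further number. Whether they are separate samples or parts of that sample cannot be told from the labels. Control libraries are numbered here in table order, as names only.

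Laminins are secreted trimers of an alpha, a beta and a gamma chain, assembled in the endoplasmic reticulum and polymerised outside the cell into the sheet on which a basement membrane is built. Nidogens bind the gamma 1 chain and link the laminin sheet to type IV collagen. Cells read the sheet through integrins and dystroglycan, which bind the end of the alpha chain, and so the alpha chain largely sets which receptor is engaged. In breast, LAMA3 joins LAMB3 in the anchoring laminin of epithelial cells, LAMA5 joins LAMB1 or LAMB2 and LAMC1 in the common laminins of mature basement membranes, and LAMA4 replaces LAMA5 in laminins of blood vessels and mesenchymal cells. VASP, an actin filament elongation factor at focal adhesions, works on the inner side of the adhesions that such ligands engage.

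The promoters of 5 chains are shown, picked with the changes in these data known. LAMB1 rose while LAMB3 fell, LAMA5 and LAMA4 fell, and LAMA3 had no call. LAMA3 and LAMB3, partners in a trimer, each have a start with the binding word of the transcription factor AP-1. A link between promoter words and the changes was not tested. RefSeq windows (GRCh38.p14) matched all 9 genes with 11 starts, 3 of them for LAMB3. Each line gives the 250 bases before the start, 5' to 3' on the gene's strand. Capitals mark matches, on either strand, to AP-1 (TGANTCA), the GC box (GGGCGG), the TATA box (TATAAA), the TEAD site M-CAT (CATTCC), the ZEB box (CAGGTG) or the CArG box of SRF.
LAMB1, chr7:108003162-108003411, minus strand: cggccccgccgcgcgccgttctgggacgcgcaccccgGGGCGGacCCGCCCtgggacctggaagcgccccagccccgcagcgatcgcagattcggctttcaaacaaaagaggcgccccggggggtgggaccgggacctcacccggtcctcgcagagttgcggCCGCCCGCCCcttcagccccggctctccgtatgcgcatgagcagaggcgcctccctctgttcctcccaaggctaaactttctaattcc
LAMB3, the third start, chr1:209651375-209651624, minus strand: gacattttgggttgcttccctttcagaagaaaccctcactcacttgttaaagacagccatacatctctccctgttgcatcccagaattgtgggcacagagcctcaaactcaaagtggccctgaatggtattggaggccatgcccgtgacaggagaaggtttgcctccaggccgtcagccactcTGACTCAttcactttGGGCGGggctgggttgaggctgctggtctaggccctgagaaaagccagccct
LAMA3, chr18:23872770-23873019, plus strand: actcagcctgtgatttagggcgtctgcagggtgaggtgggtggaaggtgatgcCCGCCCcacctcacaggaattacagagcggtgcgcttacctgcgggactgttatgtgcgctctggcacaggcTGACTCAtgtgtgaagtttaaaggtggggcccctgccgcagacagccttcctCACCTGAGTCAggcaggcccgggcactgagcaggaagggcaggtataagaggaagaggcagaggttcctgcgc
LAMA5, chr20:62367313-62367562, minus strand: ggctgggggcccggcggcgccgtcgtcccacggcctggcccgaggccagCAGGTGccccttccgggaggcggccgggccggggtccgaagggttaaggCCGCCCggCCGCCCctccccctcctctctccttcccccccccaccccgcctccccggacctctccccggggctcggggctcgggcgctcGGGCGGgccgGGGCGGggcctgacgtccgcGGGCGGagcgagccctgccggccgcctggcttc
LAMA4, chr6:112254568-112254817, minus strand: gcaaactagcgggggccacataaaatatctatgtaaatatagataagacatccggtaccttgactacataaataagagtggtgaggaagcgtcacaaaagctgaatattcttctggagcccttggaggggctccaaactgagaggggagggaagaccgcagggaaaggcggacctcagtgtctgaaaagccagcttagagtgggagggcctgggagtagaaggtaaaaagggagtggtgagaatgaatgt

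The LAMA3 start shown lies inside the annotated gene, before its shorter isoform. Its window held 2 AP-1 words, 125 and 69 bases before the start, and the second overlaps a ZEB box match. The LAMB3 window shown held 1, at 67 bases before the start, and the other two LAMB3 starts and the starts of the other members held none. Of 35116 RefSeq windows of 300 bases (250 before and 50 from the start), 7.71% held the AP-1 word. GC boxes numbered 5 in LAMA5 and 4 in LAMB1, and 45.0% of all windows held at least 1. LAMA4 had no match to any of the 6 motifs, and its upstream bases were 48.4% G or C against 82.8% for LAMA5 and 70.4% for LAMB1. No member window held a TATA box, M-CAT or CArG match, which 11.5%, 14.0% and 1.29% of all windows held, while 20.6% of all windows held a ZEB box. These are letter matches, and none was tested for binding.

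Library totals ran from 28856610 to 30055503 counts. VASP itself (ENSG00000125753) went from 164 ± 9.04 to 12.7 ± 0.355 CPM (counts relative to the TMM-scaled library size; SD, n = 3 each), 12.9-fold lower. VIM, CD44, AXL, KRT18 and EGFR, fixed as markers of the line, summed to 4920 to 4980 CPM in control and 4920 to 5010 CPM in knockdown. Within that sum EGFR rose from 607 ± 40 to 715 ± 20.3 CPM (edgeR adjusted p = 0.0012), and the other 4 had no call. ESR1, PGR, CDH1, EPCAM, KRT5 and KRT14, fixed as low or absent in the line, summed to 6.82 to 7.41 CPM in control and 5.58 to 6.68 CPM in knockdown. Most of this was EPCAM, at 6.42 and 5.43 CPM. Summed markers of fibroblasts stood at 6.40 to 7.90 CPM in control and 6.81 to 7.34 CPM in knockdown. Most of this was COL1A1, at 6.11 and 5.89 CPM, with PDGFRB at 0.895 and 0.893 CPM and DCN and LUM at 0 in every library. Leukocyte markers summed to 0.138 to 0.343 CPM in control and 0.204 to 0.456 CPM in knockdown. Of 6 endothelial markers, 4 were too low to test, PECAM1 fell and KDR stood at 3.94 CPM in both groups, and their sum was 6.98 to 7.37 CPM in control and 6.16 to 6.36 CPM in knockdown. Of 6 myoepithelial markers, KRT5 and MYH11 were at 0 in every library and ACTA2 fell, and their sum went from 6.59 to 7.20 CPM in control to 4.43 to 4.63 CPM in knockdown. The part of these markers in the laminin results was not tested.

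Most of the laminin chains were lower after VASP knockdown, and LAMB1 was higher. Of the 9 genes, 8 passed the filter on low counts. Of these, LAMA4, LAMA5, LAMB2, LAMB3 and LAMC1 fell, LAMB1 rose, and LAMA3 and NID2 did not pass the test (edgeR quasi-likelihood test, adjusted over 16633 genes, threshold 0.05). In the same test 37.2% of all genes were called, 18.9% higher and 18.3% lower in knockdown. The groups did not overlap in the 6 called members, and they did not overlap in 47.6% of all genes tested. The median log2 fold change was -0.24 over the 8 tested members and -0.008 over all genes tested. Corrected for GC content and length, 4 members fell and 1 rose, and of 16207 genes 12.2% were lower and 17.6% higher in knockdown, a tilt towards higher calls that the uncorrected test did not have. When the test asked for more than a 1.2-fold change, LAMA4, LAMA5 and LAMB3 passed, beside 953 of all 16633 genes tested.

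**Figure D1:**
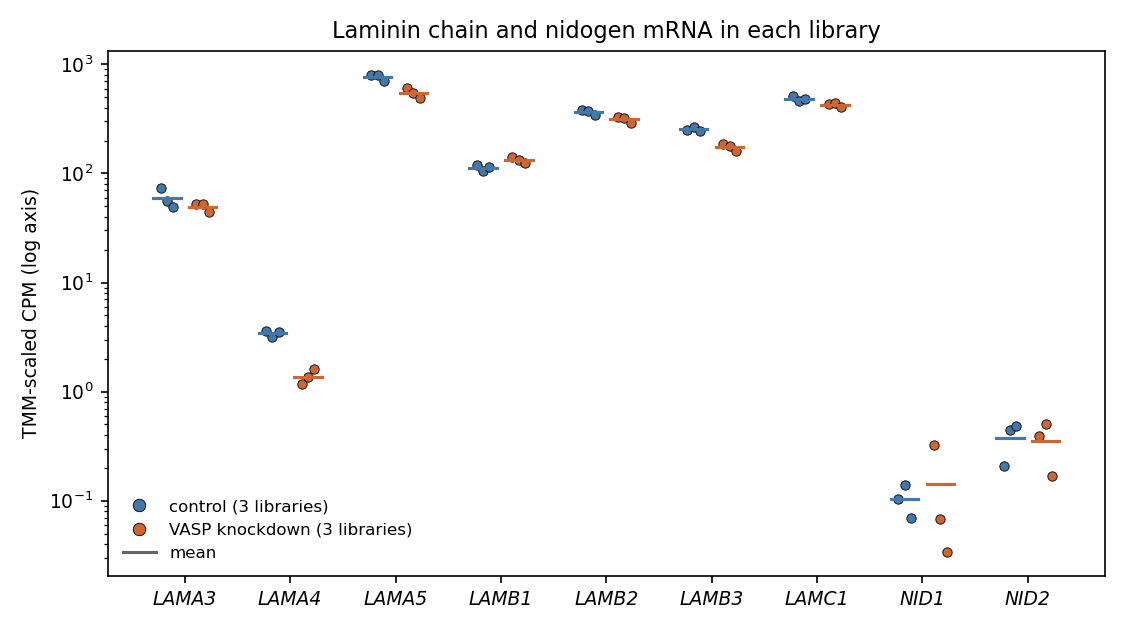
TMM-scaled CPM (log axis) of the 9 genes in each of the 3 control and 3 VASP knockdown libraries, with a line at each group's mean. LAMA5 is the highest on this scale, which is not divided by length, LAMA4 shows the widest gap between groups, and the nidogens lie below 1 CPM.

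LAMA5 (ENSG00000130702, GRCh38 chromosome 20, 62307955 to 62367312, minus strand) encodes the alpha 5 chain, a ligand of integrin alpha 3 beta 1 and alpha 6 integrins. Its level was 791, 805 and 705 CPM in control libraries 1 to 3 and 601, 546 and 496 CPM in knockdown libraries 1 to 3. Every knockdown library lay below every control library, and control library 3 was the lowest of its group. LAMA5 fell 1.40-fold, from 767 ± 54.1 to 548 ± 52.6 CPM (SD, n = 3; log2 fold change -0.49, SE 0.07, edgeR adjusted p = 1.3e-05). Its longest annotated transcript is 66.4% G or C, among the 1621 tested genes of highest GC content (61.1% to 74.7%), whose median log2 fold change was -0.23. Corrected for GC content and length, the log2 fold change of LAMA5 was -0.19 (edgeR adjusted p = 0.0053).

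LAMA4 (ENSG00000112769, chromosome 6, 112107931 to 112254939, minus strand), the alpha 4 chain, had the largest fold change of the tested members and a low level. Control libraries held 105, 91 and 102 counts of it, against 36, 40 and 47 for knockdown, which is 3.6, 3.14 and 3.53 against 1.17, 1.35 and 1.6 CPM. The groups were apart by more than the range within either. LAMA4 fell 2.49-fold, from 3.42 ± 0.248 to 1.38 ± 0.214 CPM (SD, n = 3; log2 fold change -1.31, SE 0.16, edgeR adjusted p = 1.4e-06). Correcting for GC content and length left the log2 fold change at -1.31. Fewer cells with LAMA4 mRNA and less of it per cell cannot be told apart in these bulk libraries, which holds for every gene described here.

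LAMA3 (ENSG00000053747, chromosome 18, 23689443 to 23956222, plus strand), the alpha 3 chain, did not pass the test. It stood at 73.4, 55.3 and 49.7 CPM in the control libraries and 52.6, 51.9 and 44.1 CPM in the knockdown libraries. Control library 1 was high, control library 2 lay a little above the highest knockdown library, and control library 3 lay within the knockdown range. The log2 fold change was -0.26 (SE 0.17, edgeR adjusted p = 0.30), and -0.08 without control library 1. LAMA3 had the widest relative spread in control among the 7 laminin chains of the set, with an SD of 20.8% of the mean.

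LAMB3 (ENSG00000196878, chromosome 1, 209614870 to 209652425, minus strand), the beta 3 chain of the epithelial anchoring laminin, had the smallest p of the 9 genes. Its level was 252, 264 and 246 CPM in the control libraries and 188, 178 and 161 CPM in the knockdown libraries. The groups were separated by more than the range within either. LAMB3 fell 1.44-fold, from 254 ± 8.95 to 176 ± 13.7 CPM (SD, n = 3; log2 fold change -0.53, SE 0.05, edgeR adjusted p = 7.5e-08). With GC content and length corrected for, its log2 fold change was -0.40. Its partner LAMA3 did not pass the test, and the difference between the changes of LAMB3 and LAMA3 was not tested.

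LAMB1 (ENSG00000091136, chromosome 7, 107923799 to 108003187, minus strand), the beta 1 chain that is widespread in embryonic and adult basement membranes, was the only called member to rise. It stood at 119, 106 and 114 CPM in the control libraries and 140, 132 and 125 CPM in the knockdown libraries. The groups did not overlap, though the lowest knockdown library was close to the highest control library. LAMB1 rose 1.17-fold, from 113 ± 6.57 to 133 ± 7.35 CPM (SD, n = 3; log2 fold change 0.23, SE 0.05, edgeR adjusted p = 0.0013), and by 0.27 on the log2 scale with GC content and length corrected for.

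LAMB2 (ENSG00000172037, chromosome 3, 49121114 to 49133118, minus strand), the beta 2 chain found with alpha 5 in mature basement membranes, differed less between groups. Its level was 385, 370 and 340 CPM in the control libraries and 331, 321 and 291 CPM in the knockdown libraries. Control library 3 and knockdown library 1 were nearly level, with no overlap. LAMB2 fell 1.16-fold (log2 fold change -0.21, SE 0.06, edgeR adjusted p = 0.0039), and with GC content and length corrected for it no longer passed (log2 fold change -0.06, adjusted p = 0.35). LAMB2 and LAMB3 both lie among the 1621 tested genes with 57.5% to 61.1% G or C, whose median log2 fold change was -0.14.

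LAMC1 (ENSG00000135862, chromosome 1, 183023420 to 183145592, plus strand) encodes the gamma 1 chain, shared by most laminins and the one that holds nidogen. It stood at 517, 457 and 479 CPM in the control libraries and 434, 439 and 406 CPM in the knockdown libraries. The groups did not overlap, and control library 2 lay nearest to the knockdown libraries. LAMC1 fell 1.14-fold (log2 fold change -0.18, SE 0.05, edgeR adjusted p = 0.0086). This call was lost without control library 1 (log2 fold change -0.13, adjusted p = 0.066) and without knockdown library 3 (-0.15, adjusted p = 0.069).

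Both nidogens were close to the limit of detection. NID1 (ENSG00000116962, chromosome 1, 235975830 to 236065109, minus strand) was too low to test, with counts of 3, 4 and 2 for control and of 10, 2 and 1 for knockdown. A floor of 3 counts corresponds to 0.0998 to 0.104 CPM across these libraries, so most of the NID1 counts sit at or under it. NID2 (ENSG00000087303, chromosome 14, 52004803 to 52069228, minus strand) had 6, 13 and 14 counts in control and 12, 15 and 5 in knockdown. The groups overlapped fully, and NID2 did not pass the test (log2 fold change -0.08, SE 0.40, edgeR adjusted p = 0.89). Exons of RTRAF on the other strand cover 30.0% of the exon bases of NID2, and fragments shared by both were not counted. For the other members the largest single overlap is 2.74% of exon bases, between LAMB1 and AC005046.1.

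**Figure D2:**
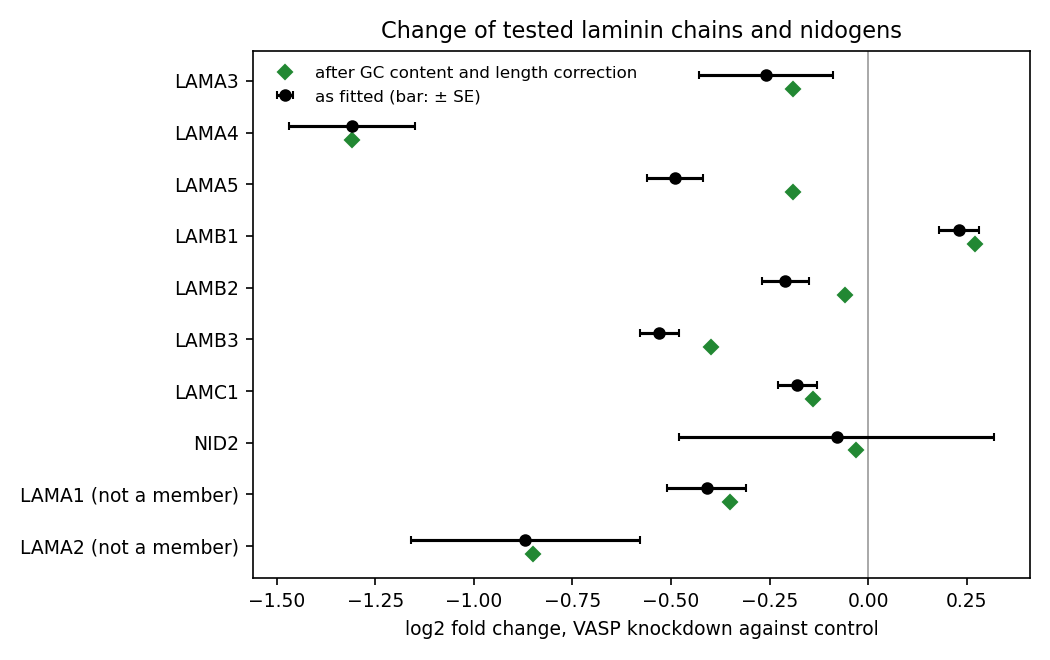
Log2 fold change of knockdown against control for the 8 tested members and for LAMA1 and LAMA2, with bars of 1 SE, and the same corrected for GC content and length (diamonds). LAMB1 lies to the right of 0, LAMA4 lies farthest to the left, and the correction moves LAMA5 from -0.49 to -0.19 and LAMB2 from -0.21 to -0.06.

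Divided by merged exon length, 4 chains stood at nearly the same level in control. LAMC1 had 57.3 ± 3.57, LAMB3 54.6 ± 1.92, LAMA5 53.7 ± 3.79 and LAMB2 53.2 ± 3.33 CPM per kilobase (SD, n = 3), and neighbours in this order did not differ beyond their spread. LAMB1 followed at 14.0 ± 0.814 CPM per kilobase, LAMA3 at 4.05 ± 0.843, LAMA4 at 0.285 ± 0.0207, NID2 at 0.0593 ± 0.0237 and NID1 at 0.0178 ± 0.00592. Each of the steps from LAMB2 down to NID2 was larger than the SDs of the genes on either side. In knockdown the leading 4 were spread out, with LAMC1 at 50.5 ± 2.13, LAMB2 at 45.8 ± 3.02, LAMA5 at 38.3 ± 3.68 and LAMB3 at 37.8 ± 2.94 CPM per kilobase. LAMA5 and LAMB3 did not differ beyond their spread there. Merged exons hold all isoforms and can be longer than a single transcript, so levels per length can be low estimates. They span 11983 bases against 6547 for LAMA4, 8072 against 5766 for LAMB1, 14678 against 10661 for LAMA3 and 6392 against 4811 for NID2. Of the leading 4, LAMA5 (14291 against 11426) and LAMB2 (6865 against 5674) are affected more than LAMC1 (8446 against 7889) and LAMB3 (4647 against 4305). The order of these 4, and the closeness of LAMA5 and LAMB3 in knockdown, therefore depend on the length used.

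Among the beta chains LAMB3 had a smaller share in knockdown and LAMB1 a larger one. LAMB3 made up 43.3%, 45.9% and 45.4% of the beta chain level per length for control and 38.2%, 37.7% and 37.4% for knockdown. LAMB1 made up 11.8%, 10.6% and 12.1% in control and 16.4%, 16.1% and 16.8% in knockdown, and LAMB2 44.9%, 43.5% and 42.5% against 45.5%, 46.1% and 45.8%. No beta chain share overlapped between groups, and CPM did not overlap in 47.6% of all genes tested. The LAMB2 difference of 2.17 percentage points was 0.661 with counts not divided by length. Shares within a class are bound to each other, so the 3 are not separate results. LAMB2 had a larger share although its own level fell (log2 fold change -0.21). The mean share of LAMB3 was 44.9% ± 1.36 in control and 37.8% ± 0.374 in knockdown, and that of LAMB1 11.5% ± 0.791 and 16.4% ± 0.324 (SD, n = 3). With 3 libraries against 3, the smallest two-sided p of an exact permutation test is 0.10. All 3 beta chain shares were at it (exact permutation p = 0.10 each, 0.15 adjusted over 6 shares), which restates that the groups did not overlap. The design cannot pass a threshold of 0.05.

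Among the alpha chains LAMA5 held nearly all of the level per length in both groups. Its share was 91.5% ± 1.03 in control and 90.7% ± 0.412 in knockdown, and that of LAMA3 was 6.88% ± 1.11 and 7.98% ± 0.323 (SD, n = 3 each; exact permutation p = 0.30 for both). The LAMA5 difference of -0.892 percentage points was -1.47 without control library 1 and -0.486 without control library 2, and the LAMA3 difference of 1.1 was 1.74 without control library 1. The share of LAMA4 was 0.489% ± 0.0593 in control and 0.276% ± 0.0687 in knockdown, without overlap (exact permutation p = 0.10). The total behind these shares includes LAMA1 and LAMA2, which are outside the set.

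**Figure D3:**
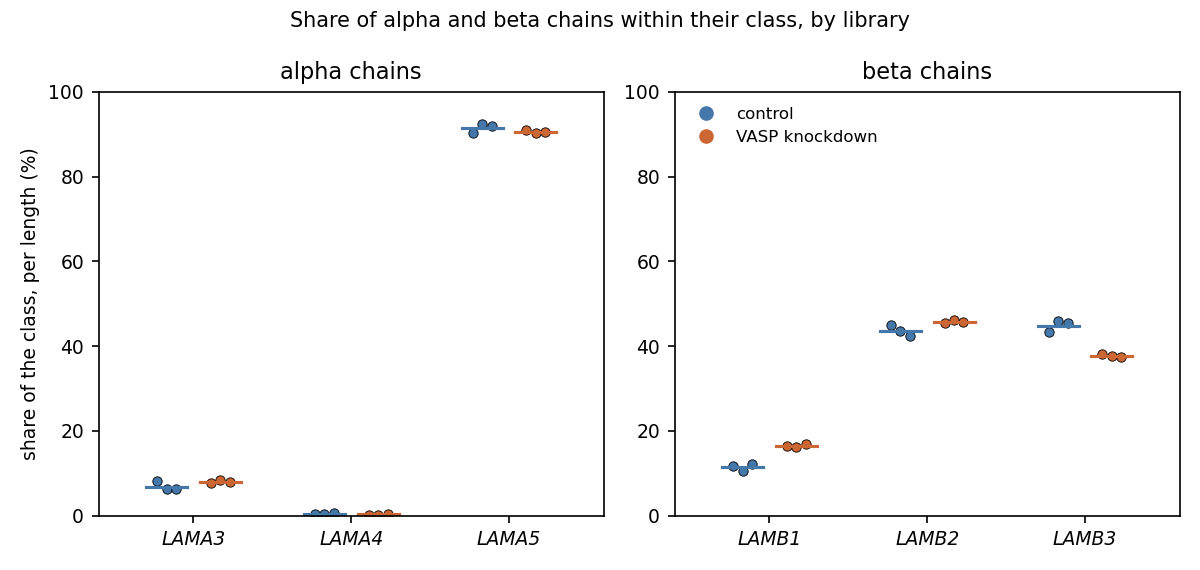
Share of each alpha and beta chain of the set in the summed CPM per kilobase of its class in each of the 3 control and 3 VASP knockdown libraries, with lines at the means. The class sums include LAMA1, LAMA2 and LAMB4, outside the set. The mean share of LAMB3 among the beta chains is 44.9% in control and 37.8% in knockdown, that of LAMB1 11.5% and 16.4%, and that of LAMA5 among the alpha chains 91.5% and 90.7%.

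Ratios of counts between members need no scaling between libraries. For the beta chains they restate the shares, which come from the same counts, and are not separate support. The log2 ratio of LAMB3 to LAMB1 was 1.08, 1.32 and 1.11 for control and 0.43, 0.43 and 0.36 for knockdown. The log2 ratio of LAMB2 to LAMB1 was 1.70, 1.80 and 1.58 in control and 1.24, 1.28 and 1.22 in knockdown. In both, the groups stood apart by more than the range within either. The mean log2 ratio of LAMB3 to LAMB1 was 0.76 lower in knockdown and that of LAMB2 to LAMB1 0.45 lower (exact permutation p = 0.10 each, the smallest possible; 0.167 adjusted over 5 ratios). The log2 ratio of LAMA4 to LAMA5 went from -7.81 ± 0.181 to -8.64 ± 0.362 (SD, n = 3; exact permutation p = 0.10), and that of LAMA3 to LAMA5 from -3.71 ± 0.24 to -3.47 ± 0.0636, with overlap (exact permutation p = 0.30).

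Summed per class and divided by length, the alpha and the beta chains were lower in every knockdown library than in any control library. These sums, and the class totals behind the shares, include LAMA1, LAMA2 and LAMB4, which are outside the set. The alpha chains went from 58.6 ± 4.29 to 42.3 ± 3.94 CPM per kilobase and the beta chains from 122 ± 4.48 to 100 ± 6.84 (SD, n = 3 each; exact permutation p = 0.10, the smallest possible). LAMA5 makes up most of the alpha sum, and LAMB3 with LAMB2 most of the beta sum. The sums, shares and ratios were not corrected for GC content. In the test of single genes, correction for GC content and length moved the log2 fold change of LAMA5 from -0.49 to -0.19. That of LAMB2 moved from -0.21 to -0.06, that of LAMB3 from -0.53 to -0.40 and that of LAMB1 from 0.23 to 0.27.

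Of the laminin chains outside the 9 genes, LAMA1 and LAMA2 fell from low levels. LAMA1, the alpha 1 chain of embryonic basement membranes, had 7.78, 8.72 and 9.51 CPM in control and 6.19, 6.49 and 6.84 CPM in knockdown (log2 fold change -0.41, SE 0.10, edgeR adjusted p = 0.0021). LAMA2, the chain of muscle and nerve laminin, had 29, 23 and 21 counts in control and 14, 18 and 9 in knockdown (log2 fold change -0.87, SE 0.29, edgeR adjusted p = 0.020). This LAMA2 call was lost without control library 1 (adjusted p = 0.095), knockdown library 1 (0.055) or knockdown library 3 (0.11). Exons of antisense genes cover 10.3% (AP002409.1) of the exon bases of LAMA1 and 6.2% (AL356124.1) of those of LAMA2. LAMB4 and LAMC3 had 0 to 3 counts a library and were not tested.

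Other components of basement membranes fell more often than they rose. Of 22 tested out of 27 listed, 11 fell and 3 rose, beside 18.3% lower and 18.9% higher over all genes. The median log2 fold change was -0.24 against -0.008 over all genes. AGRN, agrin, a proteoglycan that binds the laminin coiled coil and dystroglycan, went from 452 ± 24.2 to 253 ± 14.3 CPM (log2 fold change -0.84, SE 0.05, edgeR adjusted p = 2.2e-11). FBLN1, the laminin-binding matrix protein fibulin 1, went from 16.0 ± 1.49 to 8.58 ± 0.52 CPM (edgeR adjusted p = 4.6e-08, log2 fold change -0.89, SE 0.09). COL4A2, a chain of type IV collagen, which forms the other network of the membrane, went from 224 ± 1.79 to 160 ± 8 CPM (edgeR adjusted p = 5.2e-08, log2 fold change -0.49, SE 0.05). With GC content and length corrected for, 8 of the list fell and 3 rose, beside 12.2% lower and 17.6% higher over all genes, with log2 fold changes of -0.54 for AGRN, -0.79 for FBLN1 and -0.30 for COL4A2.

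Receptors for laminin moved both ways. Of 14 tested, 7 fell and 2 rose, with a median log2 fold change of -0.13, beside 18.3% lower and 18.9% higher over all genes. CD151, the tetraspanin that partners the laminin-binding integrins, went from 329 ± 24.9 to 202 ± 17.6 CPM (log2 fold change -0.70, SE 0.06, edgeR adjusted p = 1.6e-07). ITGA6, the alpha 6 integrin subunit, went from 150 ± 9.11 to 202 ± 5.20 CPM (edgeR adjusted p = 5.8e-07, log2 fold change 0.43, SE 0.05). BCAM, a receptor for the alpha 5 chain, went from 81.5 ± 2.98 to 64.1 ± 1.31 CPM (edgeR adjusted p = 1.0e-05, log2 fold change -0.35, SE 0.05), or -0.13 on the log2 scale once GC content and length were corrected for (adjusted p = 0.031). With that correction 5 receptors fell and 3 rose, beside 12.2% lower and 17.6% higher over all genes. The share that rose was near that over all genes, and the share that fell was above it. ITGB4, the beta 4 integrin subunit, passed with the correction and not without it.

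Listed genes of the hemidesmosome, which ties the epithelial anchoring laminin to keratin filaments, moved both ways. Of the 6 listed, 2 fell and 2 rose, with a median log2 fold change of 0.14, beside 18.3% lower and 18.9% higher over all genes. ITGA6, ITGB4 and CD151 are also on the receptor list, so their calls are counted in both lists. COL17A1, a transmembrane collagen of the hemidesmosome, rose from 2.05 ± 0.112 to 3.39 ± 0.364 CPM (log2 fold change 0.72, SE 0.15, edgeR adjusted p = 4.7e-04), beside the rise of ITGA6 and the fall of CD151. With GC content and length corrected for, 3 rose (ITGA6, ITGB4 and COL17A1) and 1 fell (CD151), beside 17.6% higher and 12.2% lower over all genes.

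Of the enzymes that build the laminin-binding sugar of dystroglycan, 2 of the 10 tested and reported here fell and 0 rose, with a median log2 fold change of -0.08. The share that fell was near the 18.3% over all genes. POMGNT1 and B4GAT1, glycosyltransferases of that pathway, fell by 0.17 and 0.19 on the log2 scale (edgeR adjusted p = 0.011 and 0.012), and neither passed when corrected for GC content and length (adjusted p = 0.26 and 0.34) or without knockdown library 3 (0.082 and 0.064). B4GAT1 also did not pass without control library 2 (0.10).

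Proteases listed for the processing of laminins or nidogens, plasminogen activators among them, were mostly lower. Of 12 tested out of 20 listed, 7 fell and 1 rose, beside 18.3% lower and 18.9% higher over all genes. The median log2 fold change of the list was -0.30. With GC content and length corrected for, 7 fell and 1 rose again, beside 12.2% and 17.6% over all genes, but the gene that rose was CTSL (adjusted p = 0.024) in place of CTSV (adjusted p = 0.084 with the correction, 0.014 without). MMP14, the membrane-anchored metalloproteinase known to cleave laminin chains, went from 181 ± 12 to 133 ± 5.26 CPM (log2 fold change -0.44, SE 0.05, edgeR adjusted p = 7.0e-07). PLAT, tissue plasminogen activator, went from 216 ± 10.8 to 171 ± 6.37 CPM (edgeR adjusted p = 1.1e-05, log2 fold change -0.34, SE 0.05). ADAMTS1, a secreted metalloproteinase able to cleave nidogens, went from 12.3 ± 0.771 to 8.10 ± 0.882 CPM (edgeR adjusted p = 2.2e-05, log2 fold change -0.60, SE 0.09).

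**Figure D4:**
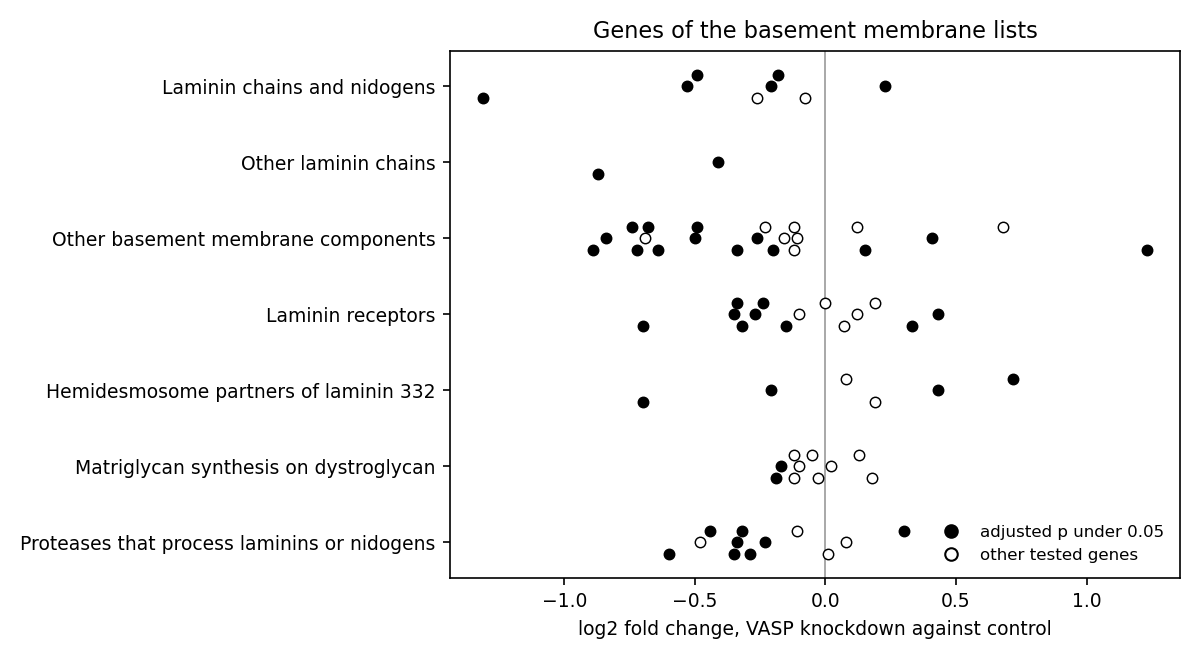
Log2 fold change of knockdown against control for tested genes of the laminin and nidogen set and of 6 lists of related genes, filled where the edgeR adjusted p was under 0.05. Filled points of the basement membrane list and of the proteases lie mostly to the left of 0, 11 against 3 and 7 against 1.

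The genes whose pattern over the 6 libraries was most like that of LAMB3, by Pearson correlation of log2 CPM, were CHPF (r = 0.9990), EHBP1L1 (r = 0.9983) and PTPA (r = 0.9981). With 2 groups of 3 libraries, 908 of 16632 genes had a correlation above 0.95 with LAMB3, and all share the same libraries and group difference.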

How the data were processed

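The authors deposited raw fragment counts by gene symbol, made per the file headers with featureCounts 1.6.4 (paired-end, exons of GENCODE release 32 on GRCh38). The submitters' processing notes also list Trim Galore 0.6.4, STAR 2.7.1a and build hg38. The command has no strand, multi-mapping or multi-overlap option, so by default strand was ignored and ambiguous fragments were dropped. All 6 columns were checked to be whole numbers, and no value column was left unused.

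Low counts were removed with filterByExpr. The main test was edgeR 4.0.16's quasi-likelihood test in R 4.3.3 (two-sided, TMM scaling, robust, group as the only term), with Benjamini-Hochberg adjustment over 16633 genes. Fold changes are knockdown against control, and an SE is the log2 fold change divided by the root of F. Scripts were tested on simulated data. The correction for GC content and length used, for each library, natural splines (5 degrees of freedom) of the deviation of genes from their mean, on the GC content and length of its longest GENCODE 29 transcript (16207 genes with a value). Across genes the fold change followed GC content (Spearman -0.415 over 16207 genes, which are not replicates). The correction removes any difference between groups that follows GC content or length, whether technical or due to the knockdown. These cannot be told apart here, so corrected values are not the truer ones by design. DESeq2 1.42.0 and limma 3.58.1 (voom) were alternatives. Within a group, the chi-square between libraries divided by its degrees of freedom was 5.63 to 9.63, above sampling noise, so each counted as 1 replicate. Shares and ratios were tested by exact two-sided permutation of libraries. Floors cover counting error only.

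The members and lists were chosen with earlier results of these data known. The genes named are the 9 members, VASP, the other laminin chains, up to 3 called genes a list, by smallest p, and the 3 genes most like the member with the smallest p. Some results on listed genes, and those on gamma chain shares and sums, are not reported here, and the list counts leave those genes out.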

Additional observations from a re-analysis of the deposited data

How the results depend on the processing

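No paired analysis was possible because the control columns carry no replicate number that matches a control sample, and the GC correction with a replicate block was not run for the same reason. Over 15 alternatives (RLE, upper quartile or no scaling, DESeq2, voom, no filter, 1 CPM in 3 libraries, a null fold change of 1.2, the GC and length correction, and each of the 6 libraries left out), 5 members fell in the main test, with 3 to 5 over all alternatives, and 1 rose. The null fold change of 1.2 gave 3 down and 0 up, with 953 genes called of 16633 against 6187, and 10 list genes down and 2 up against 30 and 7. Without 1 library at a time, 4481 to 6399 genes, 4 to 5 members down, 1 up, 26 to 29 list genes down and 5 to 8 up were called. Of the named genes NID2, which had no call, changed sign: it went from -0.08 to 0.05, 0.13 and 0.24 without control library 2, control library 3 and knockdown library 3. The log2 ratio of NID2 to NID1, on counts near the floor, had a difference of -0.01, and of -0.54 to 0.78 without 1 library at a time. Every other share and ratio kept its sign over its alternatives, among them counts not divided by length and, added after the data were examined, the longest transcript's length. LAMA4, LAMA5 and LAMB3 passed in every alternative in which they were tested. Their log2 fold changes ran from -1.43 to -1.21, from -0.56 to -0.19 and from -0.58 to -0.40. Where leaving out a library leaves 2 in a group, the spread rests on the remaining libraries. NID2 and LAMA2 had no value with the filter of 1 CPM or no adjusted p with DESeq2. Depth limits the nidogens, LAMB4 and LAMC3.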
